A study of Arabidopsis thaliana with 8 samples.

Results

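CRR21, CRR41, PIFI and TAAC are 4 nuclear genes of Arabidopsis thaliana whose proteins serve the chloroplast NADH dehydrogenase-like (NDH) complex, chlororespiration and the thylakoid membrane. Each was found by its symbol in the table that names the array's probe sets, and the brightest probe set naming the gene alone was taken. All 4 genes had 1 such probe set, so they are 4 of the 16554 genes with a probe set of their own, on an array table of 28583 probe sets. The genes were proposed with results of the same genotype comparison known. Their differences between genotypes are therefore described without a test.

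Leaf RNA was hybridised to 8 one-colour arrays. Of these, 4 carry the label wild type and 4 the label fbn5-1, the name of a T-DNA insertion line of the plastid fibrillin gene FBN5. All plants were of the Col-0 accession and 3 weeks old. They were grown without treatment on sucrose-supplemented half-strength MS medium at long days, and the labels name 1 insertion line. Whether a replicate was a separate plant or culture is not stated, so p-values cover only sample-to-sample spread, possibly of technical origin. Values are the deposited log2 signals. An array averages over all cells of the leaf, so a lower share of expressing cells and less RNA per cell cannot be told apart.

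The NDH complex sits in the thylakoid membrane and passes electrons from ferredoxin to plastoquinone. It thereby takes part in cyclic electron flow around photosystem I and in chlororespiration, the non-photochemical reduction and oxidation of the plastoquinone pool in the dark. Its subunits are encoded partly in the plastid and partly in the nucleus. Nuclear proteins also edit the plastid ndh transcripts and assemble the complex. FBN5 is linked to the synthesis of plastoquinone, the acceptor of these electrons.

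FBN5 (AT5G09820) was read first as a check on the labels. Its log2 signal was 3.54, 3.35, 3.43 and 5.15 on wild type arrays 1 to 4, and 4.71, 4.52, 4.76 and 4.58 on the arrays labelled fbn5-1. The targeted transcript was thus not lower under the mutant label, with a difference of 0.775 (limma, SE 0.36, adjusted p = 0.173). With wild type array 4 left out it was 1.203 (SE 0.11) and was called higher (adjusted p = 0.000534). The position of the insertion within the gene is not given here, and a probe set outside the disrupted stretch checks nothing. Every direction below rests on the labels. Wild type array 4 also stood apart more widely. It was an outlier of its group at 6.86% of the 17147 tested probe sets, against 0.688% to 1.69% for the other 7 arrays. Of 8 mesophyll markers 2 had a probe set of their own. Of these RCA, Rubisco activase, lay between 10.87 and 11.08 on all arrays, and PORB varied more, between 7.90 and 8.66. PYK10, a root beta-glucosidase, lay between 9.23 and 9.72 on 7 arrays and at 6.84 on wild type array 4. The value without this array is given for the 4 chosen genes and for each list gene whose call it changed.

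CRR21 encodes a pentatricopeptide repeat protein, a sequence-specific RNA-binding protein that is required to edit a site in the plastid ndhD transcript. Its log2 signal was 4.46, 4.31, 3.82 and 3.68 on wild type arrays 1 to 4. On fbn5-1 arrays 1 to 4 it was 4.73, 4.68, 4.83 and 5.0. All mutant arrays lay above all wild type arrays, with a gap of 0.22 between the closest values. The wild type arrays fell into a higher pair (1 and 2) and a lower pair (3 and 4), and their range of 0.78 was wider than the 0.32 of the mutant arrays. Means were 4.07 ± 0.38 and 4.81 ± 0.14 (SD, n = 4), a difference of 0.74 (SE 0.18), or 1.67-fold on the linear scale. Without wild type array 4, the lowest of the 8, the difference was 0.61 (SE 0.16).

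CRR41 encodes a stromal factor needed to assemble subcomplex A, the stroma-exposed arm of the NDH complex. Its log2 signal was 3.38, 3.64, 3.30 and 3.46 on the wild type arrays and 3.99, 4.19, 3.99 and 4.39 on the fbn5-1 arrays. The groups were separated by 0.35, about as much as each varied within itself (ranges of 0.34 and 0.40). Means were 3.445 ± 0.15 and 4.14 ± 0.19 (SD, n = 4), a difference of 0.695 (SE 0.13), or 1.62-fold. Without wild type array 4 it was 0.70 (SE 0.14). CRR41 lay near the filter value of 2.79, below which a probe set was not tested, and did not enter the test when the filter was raised to the 60th percentile.

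TAAC encodes a thylakoid ATP/ADP carrier of the mitochondrial carrier family, which exchanges adenine nucleotides across plastid membranes and has also been described as a transporter of the sulfate donor PAPS. Its log2 signal was 4.62, 4.67, 4.88 and 4.97 on the wild type arrays and 5.78, 5.76, 5.38 and 5.74 on the fbn5-1 arrays. Mutant arrays 1, 2 and 4 lay within a few hundredths of each other. Array 3 was lower and still 0.41 above the highest wild type value, which was that of array 4. Means were 4.785 ± 0.17 and 5.665 ± 0.19 (SD, n = 4). The difference of 0.88 (SE 0.13), or 1.84-fold, was the largest of the 4 genes on the deposited scale, and without wild type array 4 it was 0.94 (SE 0.13).

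PIFI, named for the post-illumination rise of chlorophyll fluorescence, encodes a chloroplast protein required for NDH-mediated reduction of the plastoquinone pool in chlororespiration and is not itself a subunit of the complex. It was the gene of the 4 that was lower under the mutant label. Its log2 signal was 9.31, 9.35, 9.31 and 9.5 on the wild type arrays and 9.03, 8.86, 8.93 and 9.13 on the fbn5-1 arrays. The groups did not overlap, by 0.18, and the highest value of each was on array 4. Means were 9.37 ± 0.09 and 8.99 ± 0.12 (SD, n = 4), a difference of -0.38 (SE 0.08), or 1.301-fold lower. Without wild type array 4 it was -0.34 (SE 0.07). The plot of the chosen genes by array shows these values.

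**Figure D1:**
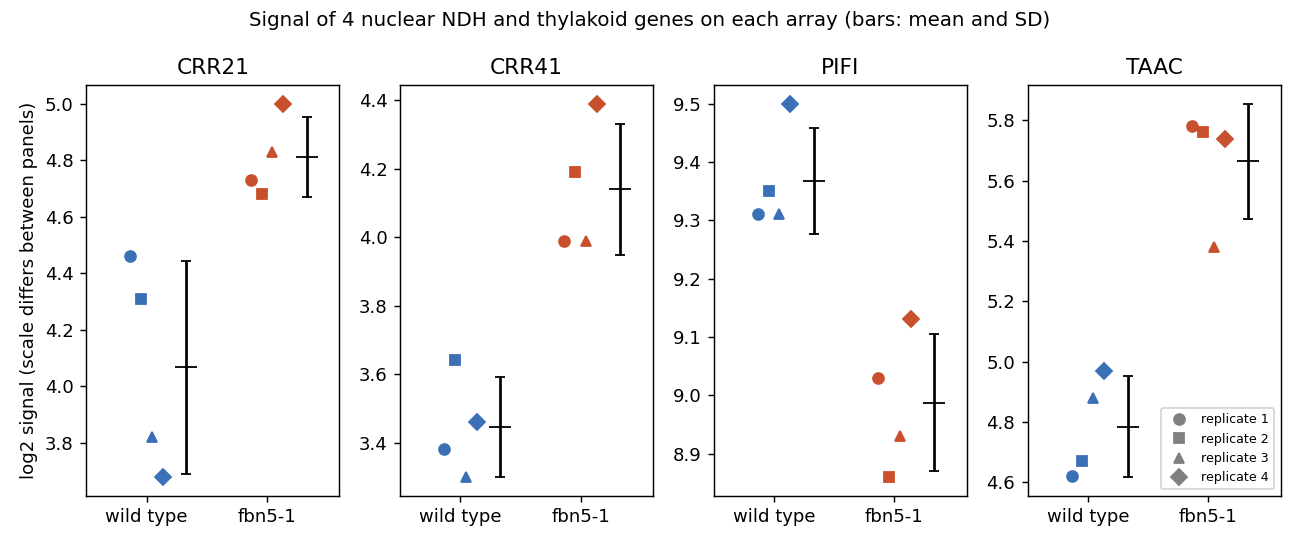
Log2 signal of CRR21, CRR41, PIFI and TAAC on each array, wild type in blue and fbn5-1 in red, with the replicate number as the marker shape and a bar for the mean and SD (n = 4). The vertical scales differ between panels and do not start at 0. In each panel the 4 arrays of one label lie apart from those of the other, above them for CRR21, CRR41 and TAAC and below them for PIFI.

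The groups thus did not overlap for 4 of 4 genes, as for 23.6% of all tested probe sets. For 3 genes all fbn5-1 arrays lay above, as for 11.7% of probe sets, and for 1 gene all lay below, as for 11.9%. Because the genes were chosen from this contrast, nothing is read from that count. The size of the 3 increases changed with the log scale. With 16 added to the linear signal before the logarithm, which damps differences near the floor, CRR21 had a difference of 0.42 (SE 0.10), CRR41 of 0.32 (SE 0.06) and TAAC of 0.62 (SE 0.09). PIFI, far above the floor, had -0.37 (SE 0.07). TAAC then still had the largest difference and CRR41 moved below PIFI in size. No direction changed under the 17 alternatives run for CRR41 or the 18 run for each of the others. Only median centring and quantile normalization could have changed one. Because the groups do not overlap, a direction cannot change when an array is left out or 16 is added. The remaining settings leave the difference of a chosen gene as it is. Quantile normalization gave PIFI its smallest difference, -0.29 (SE 0.07), and left TAAC at 0.90 (SE 0.13).

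**Figure D2:**
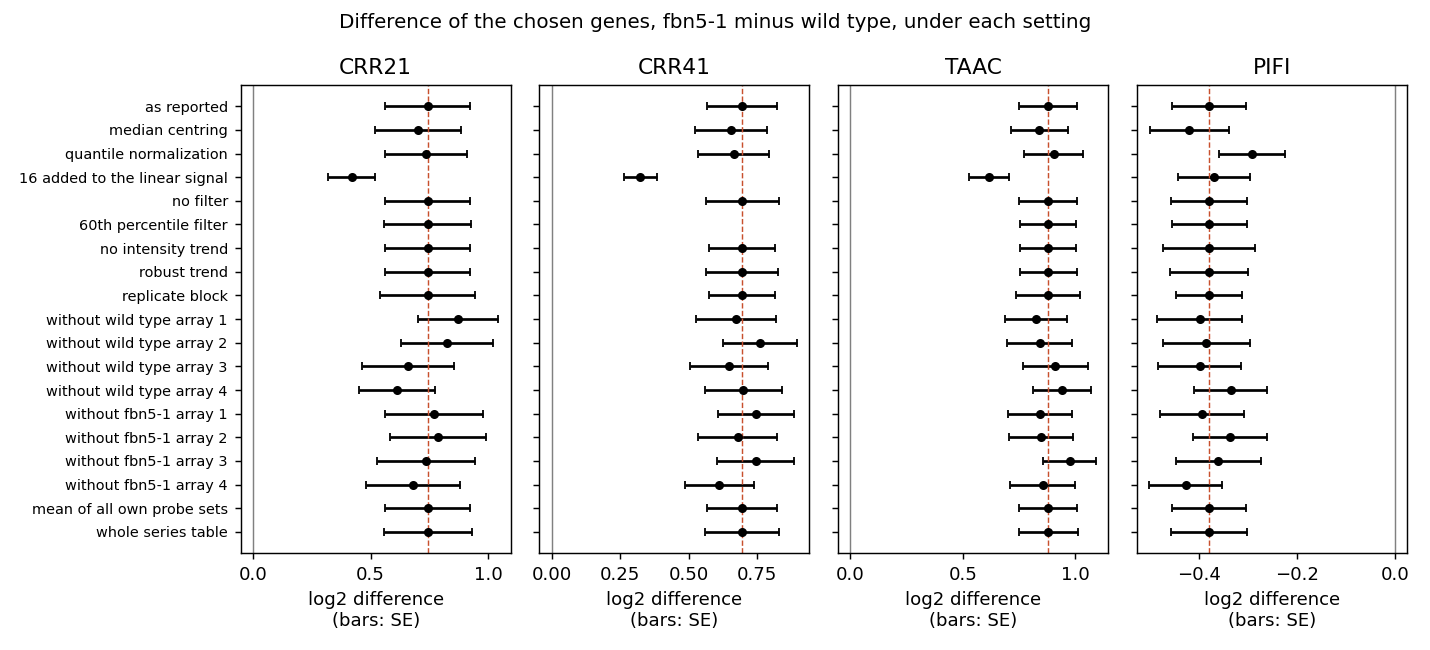
Log2 difference, fbn5-1 minus wild type, of each chosen gene (points, with the SE as bars) under the reported setting and each alternative. The dashed line marks the reported value and the grey line marks 0. The points for CRR21, CRR41 and TAAC with 16 added to the linear signal (0.42, 0.32 and 0.62) lie to the left of the rest, and CRR41 has no point for the 60th percentile filter.

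The other genes of these pathways were taken from lists by function, and each was tested in one limma fit over all 17147 probe sets. In that fit 16.8% of probe sets were called, meaning an adjusted p (Benjamini-Hochberg) under 0.05, with 8.22% higher and 8.55% lower under the mutant label. The 6 nuclear lists held 124 genes besides the chosen ones, of which 34 had a probe set of their own and 31 passed the filter. Of these 31, 3 rose, 2 fell and 26 were not called. The 16.1% called was near the background. The median difference was 0.16, against -0.015 over all tested probe sets, and 23 of the 31 differences were positive. The median over all probe sets was 0.0125 without a filter and -0.035 with the filter at the 60th percentile. It thus moved with the signal level of the probe sets kept, and it was not matched to the lists in level.

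Nuclear subunits of the NDH complex were not called. NdhL, a membrane subunit that anchors subcomplex A, had a log2 signal of 9.95, 9.88, 9.69 and 9.89 on the wild type arrays and 9.90, 9.92, 10.07 and 9.99 on the fbn5-1 arrays. The groups overlapped, and the difference was 0.12 (SE 0.07, adjusted p = 0.275). NdhN, of subcomplex A itself, differed by 0.06 (SE 0.09). All 4 tested subunits of 18 listed lay between -0.20 and 0.335.

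Among the other NDH assembly factors, 3 of 9 were tested and 0 were called. CRR42, which like CRR41 acts in the assembly of subcomplex A, was at 7.31, 7.12, 7.14 and 7.23 on the wild type arrays and 7.13, 6.79, 7.03 and 7.29 on the fbn5-1 arrays. Its groups overlapped and its difference was -0.14 (SE 0.11, adjusted p = 0.421). Cpn60beta4, a chaperonin subunit that folds the plastid-encoded NdhH, differed by 0.145 (SE 0.08). AT5G52780, the third, differed by -0.20 (SE 0.11, adjusted p = 0.26). It had -0.31 (SE 0.08) with wild type array 4 left out and was then called lower (adjusted p = 0.0203).

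In the list of plastid RNA editing and processing factors, to which CRR21 belongs, 9 of 30 other genes were tested. Of these, 2 rose, 0 fell and 7 were not called. The median difference was 0.305, against -0.015 over all tested probe sets, which are not matched in signal level, and 8 of the 9 were positive. AT3G14330 rose by 0.43 (SE 0.10, adjusted p = 0.0233) and AT5G66520 by 0.56 (SE 0.16, adjusted p = 0.0425). On the wild type arrays AT3G14330 was at 5.12, 4.95, 4.87 and 4.96, and on the fbn5-1 arrays at 5.30, 5.59, 5.30 and 5.44, without overlap. AT5G66520 was at 5.47, 5.2, 5.15 and 4.77 and at 5.50, 5.59, 5.83 and 5.90, separated by 0.03. With 16 added to the linear signal, AT3G14330 rose by 0.30 (adjusted p = 0.0244) and AT5G66520 by 0.40 (adjusted p = 0.0416). In that setting OTP86, not called, went from 0.48 to 0.25, and OTP84, not called, from 0.305 to 0.14.

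Both calls depended on the arrays. That of AT3G14330 was lost when wild type array 2 or 3 or fbn5-1 array 2 or 4 was removed; the highest adjusted p was 0.0652, with wild type array 3 left out. That of AT5G66520 held when wild type array 1 or 4 was left out. It was lost with any other array removed, the highest adjusted p being 0.106, with fbn5-1 array 3 left out. CRR22, a pentatricopeptide repeat protein that edits several plastid sites, ndhB and ndhD among them, was at 4.12, 3.97, 4.41 and 4.10 on the wild type arrays and 4.86, 4.53, 4.65 and 4.38 on the fbn5-1 arrays. Its groups overlapped by 0.03 log2 units at their nearest ends, and its difference of 0.455 (SE 0.14) just missed the threshold (adjusted p = 0.0523). CRR22 was called without wild type array 3 (0.54, adjusted p = 0.044) and without fbn5-1 array 4 (0.53, adjusted p = 0.0444). AT1G73530 differed by 0.13 (SE 0.11, adjusted p = 0.46). It had 0.24 (SE 0.07) with wild type array 4 left out and was then called (adjusted p = 0.0394).

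**Figure D3:**
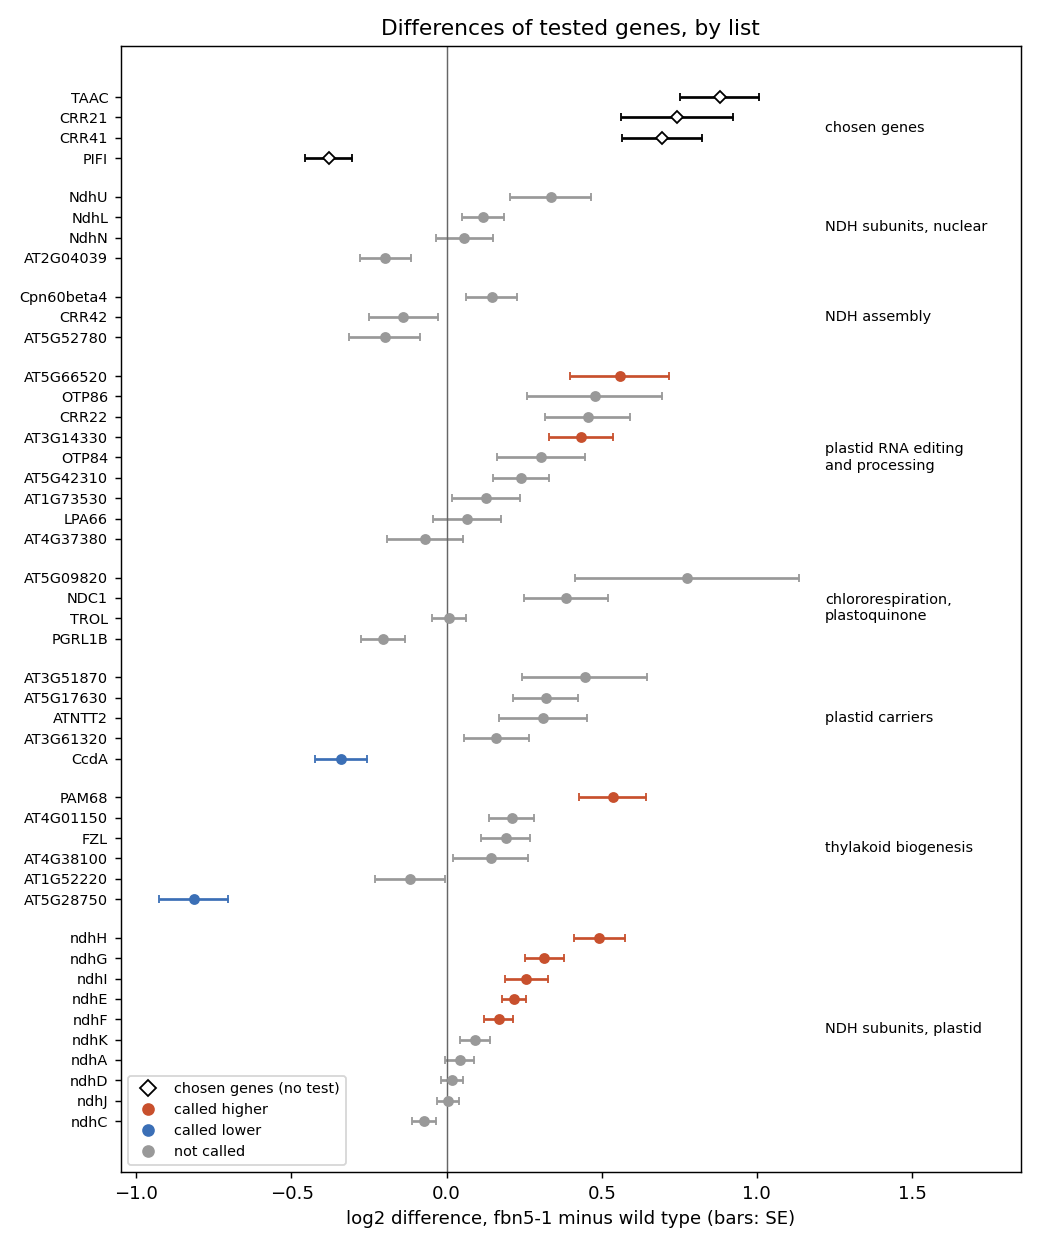
Log2 difference, fbn5-1 minus wild type, with its SE, for the chosen genes (open diamonds, no test) and each tested gene of the 7 pathway lists (circles, red where called higher, blue where called lower, grey where not called). In the nuclear lists 3 genes are red and 2 blue; 5 of the 10 plastid-encoded NDH subunits are red.

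PIFI's list, chlororespiration, cyclic electron flow and plastoquinone synthesis, had 4 other tested genes of 21, FBN5 included, and 0 were called. PGRL1B, which acts with PGR5 in the other route of cyclic flow, was at 6.99, 6.94, 7.09 and 7.02 on the wild type arrays and 6.84, 6.80, 6.78 and 6.80 on the fbn5-1 arrays. Its groups did not overlap, yet its difference of -0.205 (SE 0.07) was not called (adjusted p = 0.0735), and it was called with each array centred on its median (-0.245, adjusted p = 0.0391). NDC1, a plastoglobule quinone reductase, differed by 0.385 (SE 0.14, adjusted p = 0.0845), and without wild type array 4 by 0.51 (SE 0.10, adjusted p = 0.00774). FBN5 was likewise called without that array. TROL, which tethers ferredoxin-NADP reductase to the thylakoid, differed by 0.0075 (SE 0.06).

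Of 21 other plastid carriers and channels, 5 were tested, 0 rose and 1 fell. Of the 5 differences, 4 were positive, as that of TAAC was, and 1 was negative. CcdA, a thylakoid membrane protein that carries reducing power to the lumen for cytochrome assembly, was at 7.30, 7.36, 7.35 and 7.57 on the wild type arrays and 6.98, 7.01, 7.13 and 7.10 on the fbn5-1 arrays. It fell by 0.34 (SE 0.08, adjusted p = 0.0253), in the direction opposite to TAAC. The call was lost when wild type array 2 or 3 or fbn5-1 array 1 or 2 was removed (highest adjusted p = 0.0654, fbn5-1 array 1 removed). ATNTT2, the ATP/ADP transporter of the plastid envelope, differed by 0.31 (SE 0.14, adjusted p = 0.163). It was at 6.45, 6.44, 6.57 and 6.83 on the wild type arrays and 6.85, 6.64, 6.81 and 7.23 on the fbn5-1 arrays, with overlap. AT3G51870 differed by 0.445 (SE 0.20, adjusted p = 0.16). It had 0.66 (SE 0.11) with wild type array 4 left out and was then called (adjusted p = 0.00488).

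Of 25 genes of thylakoid biogenesis and lipid synthesis, 6 were tested, 1 rose and 1 fell. PAM68, an assembly factor of photosystem II, was at 5.33, 5.24, 5.32 and 5.06 on the wild type arrays and 5.58, 5.73, 5.89 and 5.89 on the fbn5-1 arrays, without overlap. It rose by 0.535 (SE 0.11, adjusted p = 0.0124). AT5G28750 was at 7.45, 7.73, 7.52 and 7.49 on the wild type arrays and 6.45, 6.88, 6.80 and 6.80 on the fbn5-1 arrays. It fell by 0.815 (SE 0.11, adjusted p = 0.0031), the largest called difference of the 6 nuclear lists, and both calls held without each array in turn. AT4G01150 (CURT1A), which curves grana margins, differed by 0.21 (SE 0.07, adjusted p = 0.0787) and, with wild type array 4 left out, 0.27 (SE 0.06), where it was called (adjusted p = 0.0178).

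The plastid-encoded NDH subunits are the partners of these nuclear factors. Of 10 tested, 5 rose, 0 fell and 5 were not called, against 8.22% higher and 16.8% called over all tested probe sets. Their median difference was 0.13, against -0.015 over all. The lists were chosen with earlier results of these data known, so nothing is read from the count of 5. The transcript that CRR21 helps to edit, ndhD, was at 11.30, 11.27, 11.26 and 11.27 on the wild type arrays and 11.30, 11.26, 11.31 and 11.30 on the fbn5-1 arrays, a difference of 0.02 (SE 0.03, adjusted p = 0.77). A probe set measures the amount of a transcript and not its editing. The ndhH transcript, for a subunit of subcomplex A, was at 10.48, 10.43, 10.21 and 10.55 and at 11.05, 10.79, 10.94 and 10.86. It rose by 0.49 (SE 0.08, adjusted p = 0.0064). Its wild type mean of 10.42 was below the 11.275 of ndhD. Both ndhC and ndhJ, with wild type means of 11.63, differed by -0.07 and 0.005 and were not called, while ndhE, at 11.48, was called. Wild type means were 10.80, 10.85 and 11.035 for ndhG, ndhF and ndhI, which were called. They were 11.50 and 11.59 for ndhA and ndhK, which were not. Whether signal level bears on these differences was not tested.

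The other called subunits were ndhG (0.315, SE 0.06, adjusted p = 0.0119), ndhI (0.26, SE 0.07, adjusted p = 0.036), ndhE (0.22, SE 0.04, adjusted p = 0.00823) and ndhF (0.17, SE 0.05, adjusted p = 0.0362). The calls of ndhF and ndhI were lost when any of arrays 1, 2 and 3 of either group was removed. The highest adjusted p was 0.0877 for ndhF, with fbn5-1 array 3 removed, and 0.0955 for ndhI, with wild type array 2 removed. With quantile normalization 2 were higher and ndhC was lower (-0.16, adjusted p = 0.0281), and ndhD had -0.08. The map of signal relative to wild type shows the lists array by array.

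**Figure D4:**
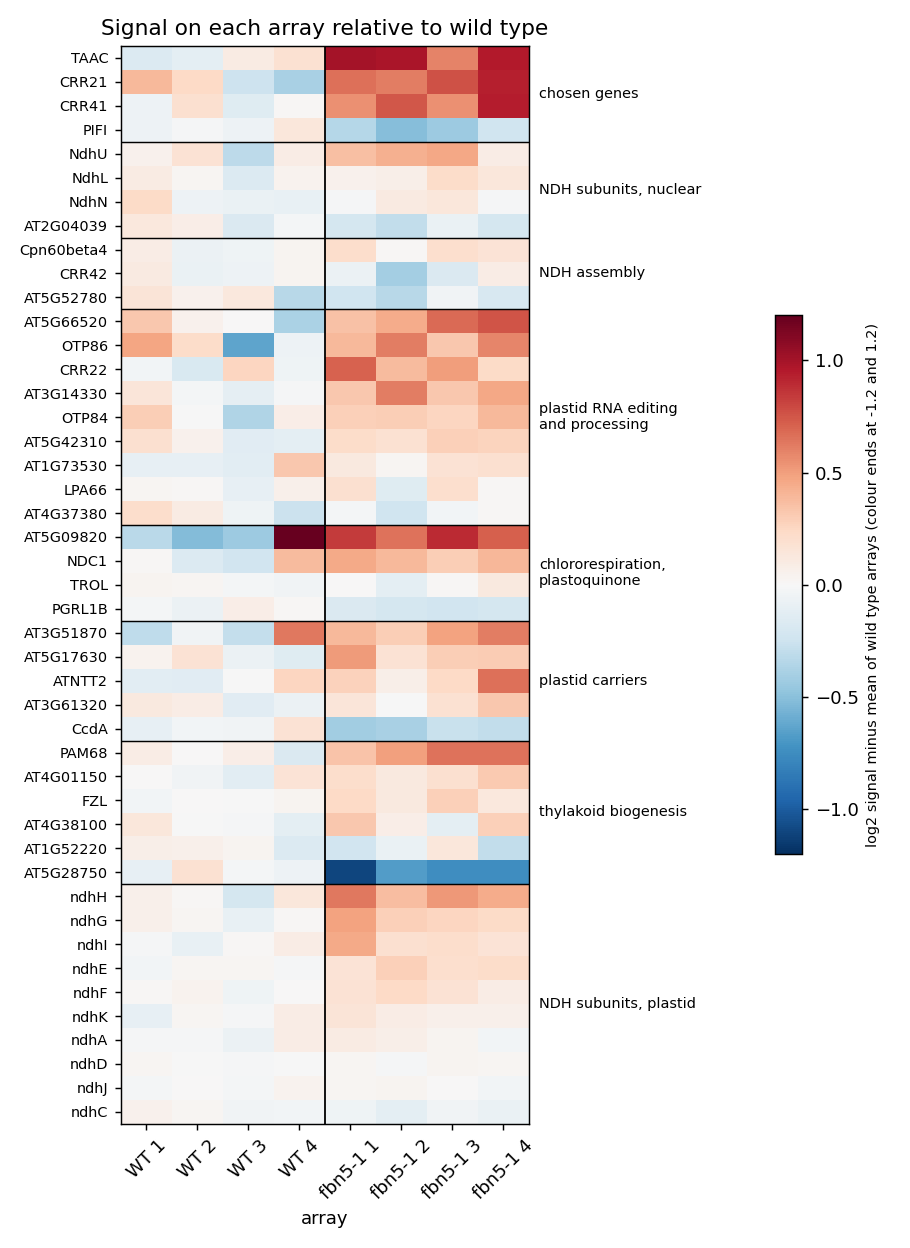
Log2 signal of each gene on each array minus its mean over the 4 wild type arrays (red higher, blue lower; 1 value beyond the colour scale is drawn at its end). Genes are grouped by list, with the chosen genes on top. TAAC, CRR21 and CRR41 are red on all 4 fbn5-1 arrays and PIFI is blue; AT5G09820 (FBN5) is dark red on wild type array 4 and red on the fbn5-1 arrays.

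The genes whose log2 signal was most like that of each chosen gene were found among 9065 other tested probe sets with 1 symbol, by Pearson r over the 8 arrays. The groups differ in these genes, so r mostly follows the labels, and high values arise readily among so many candidates. For CRR21 they were AT1G76550 (0.983), AT5G39530 (0.981) and AT1G66890 (0.974). CRR41 was most like AT5G28060 (0.980), AT5G62840 (0.975) and AT3G54750 (0.974). For TAAC they were AT5G58420 (0.985), AT1G18335 (0.984) and AT4G34670 (0.980), and for PIFI AT5G43540 (0.996), AT4G30690 (0.993) and PRA8 (0.988).

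After the group means were taken out, the most alike genes were mostly others. They were HON4 (0.972), AT3G06170 (0.967) and AT3G20640 (0.966) for CRR21, and U2AF35B (0.951), AT4G04880 (0.951) and AT1G09640 (0.925) for CRR41. For TAAC they were AT1G64830 (0.987), AT1G79540 (0.961) and AT1G24851 (0.947). PIFI kept AT5G43540 (0.980), beside AT1G42960 (0.987) and AT5G66090 (0.978). AT5G43540 was thus among the 3 most like PIFI by both measures, with means of 3.835 and 3.43, a difference of -0.405. The 2 measures are not separate, because r over the 8 arrays includes the deviations within the groups. Both were taken as the highest of 9065 candidates. None of the chosen genes was among the 3 most like another by either measure.

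The nearest protein-coding genes along the chromosome, 3 on each side of each chosen gene, were looked up by gene order. Of these 24, 6 had a tested probe set of their own, and 1 was called, beside 16.8% of all tested probe sets. AT1G51090, next to CRR41, fell by 1.502 (SE 0.33, adjusted p = 0.016), opposite in direction to CRR41, and on its other side AT1G51110 differed by 0.31 (SE 0.13, adjusted p = 0.124). No tested neighbour was found for CRR21. LHCB4.1, near TAAC, differed by -0.17 (SE 0.06, adjusted p = 0.0716).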

How the data were processed

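Biotin-labelled cRNA from total leaf RNA was hybridised to Affymetrix arrays, per the labels. The authors deposited 1 log2 value per probe set and array; base 2 was inferred from their range. The submitters' processing notes name MAS5, and the other steps are not given in the sources used here. Shared probe sets of the series table (38408) and the series matrix (28583) were identical, and the matrix was used. Array medians lay between 3.42 and 3.45 in wild type and between 3.46 and 3.49 in fbn5-1, so all mutant medians were the higher. The range was narrow and the scaling was kept, with median centring and quantile normalization as alternatives. Of the matrix, 16746 probe sets have 1 symbol, 758 several and 11079 none; 16601 of the 16746 were found by gene number in RefSeq (TAIR10.1), which was used for names and gene order. The number of arrays limits the precision.

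Probe sets with a mean above the 40th percentile (log2 2.79) were tested (17147) with limma 3.58.1 in R 4.3.3 (lmFit, eBayes with an intensity trend, two-sided), as fbn5-1 minus wild type. The procedure was run on simulated data with independent normal noise for each probe set and array. These hold no outlying array like wild type array 4, so the error rate in the real data was not tested. List genes were matched by locus, plastid genes by symbol, and each was read from its brightest own probe set. Members and lists were chosen with earlier results of these data known. Genes named were the members, FBN5, up to 8 called genes a list and up to 4 preset genes a list; neighbours and other list genes were named after their values were seen. Alternatives were median centring, quantile normalization, 16 added to the linear signal, no filter, a filter at the 60th percentile, eBayes with a robust or no trend, the replicate number as a block, each array left out, the mean of a gene's own probe sets, and the whole series table. The marker lists for vascular tissue, dividing cells and flower had 0 genes with a probe set of their own; FMA, of guard cells, and PORB, of mesophyll, were not called. No sequences were used here.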

Additional observations from a re-analysis of the deposited data

Results flagged for a closer look

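In 46 groups of 4 arrays (23 genes in 2 groups each), 3 held a value far from the other 3 by Dixon's test at its 95% critical value, which chance alone passes in about 5% of groups. TAAC was at 5.38 on fbn5-1 array 3, the lowest of its group. NdhN was at 7.86 on wild type array 1, the highest of its group. FBN5 (AT5G09820) was at 5.15 on wild type array 4, the highest of its group. Without fbn5-1 array 3, TAAC's difference was 0.975 (SE 0.12).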

How the results depend on the processing

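The directions of CRR21, CRR41, TAAC and PIFI held in every alternative run, though only median centring and quantile normalization could have changed them. With 16 added to the linear signal the differences of CRR21, CRR41 and TAAC were 0.42, 0.32 and 0.62. With one array left out they ranged from 0.61 to 0.87, 0.61 to 0.76 and 0.825 to 0.975, and PIFI from -0.43 to -0.34. The 2876 calls over all probe sets (1410 higher, 1466 lower) were 1731 (849 and 882) with the replicate block. They were 3110 (1231 and 1879) with median centring and 2932 (1612 and 1320) with quantile normalization. With one array left out they were 1736 to 3854 (909 to 1635 higher, 827 to 2219 lower). The most came without wild type array 4 and the fewest without wild type array 2.

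Editing factors called higher, 2 as reported, numbered 1 with median centring and without a filter, 4 with quantile normalization, 0 with the replicate block, and 0 to 3 with one array left out. Plastid NDH subunits called higher, 5 as reported, numbered 3 with median centring, without a filter and with the replicate block, 2 with quantile normalization and without an intensity trend, and 3 to 5 with one array left out; 1 was lower with quantile normalization. Among carriers 1 was higher and 0 lower with quantile normalization, and 0 lower with the replicate block; with one array left out 0 to 1 were higher and 0 to 1 lower. Chlororespiration genes called lower were 1 with median centring, and 0 to 2 were called higher with one array left out. With one array left out, 0 to 1 assembly factors were lower and 1 to 2 thylakoid genes higher. The difference of ndhD was -0.0225 with median centring and -0.0764 with quantile normalization. The causes were not tested. Of 323 other values for 19 named genes, 269 kept direction and side of the threshold, 44 lost and 8 gained a call. They cover 17 alternatives and leave out the whole series table. With that table AT5G66520, ndhF and ndhI lost their calls (limma, adjusted p = 0.0554, 0.0545 and 0.0506). The replicate number as a block ended the calls of AT3G14330, AT5G66520, CcdA, ndhF and ndhI (adjusted p = 0.0685, 0.109, 0.0592, 0.0782 and 0.0702). For same-numbered arrays, r of deviations from the group means was 0.157, -0.187, -0.037 and 0.002 for numbers 1 to 4. For differently numbered arrays it lay between -0.188 and 0.156. The deviations include those of outlying wild type array 4, so this cannot exclude a pairing. The labels do not say what a replicate number shares, and the samples were not paired in the reported fit. CRR41 did not pass the 60th percentile filter, so it has no value there.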
